A study of Arabidopsis thaliana with 8 samples.

Results

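A set of 123 array probes was on average at least 2-fold brighter in Arabidopsis thaliana plants kept at high CO2 than at normal CO2. Among the 3439 probes of the array, 788 had a mean intensity of 0.68 or more over all 8 arrays and are called abundant here. The 123 are those abundant probes whose mean on the high-CO2 arrays was at least 2 times their mean on the normal-CO2 arrays and whose lowest high-CO2 value exceeded their highest normal-CO2 value. They made up 15.6% of the abundant probes and 3.58% of all probes. The same rule turned round found 98 abundant probes that were lower at high CO2, or 12.4% of the abundant ones. Groups that did not overlap, with high CO2 above, were found in 29.8% of the abundant probes and 17.5% of all probes, from which nothing is read about the 123, since the rule asked for it. Because the values at high and normal CO2 chose the probes, their levels and ratios are given as a description, without a test.

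The high-CO2 group was wild-type Columbia 0, the common laboratory ecotype of this small flowering plant, kept for the last 10 days in air with 1% CO2 by volume (4 arrays). The normal-CO2 group was wild-type Columbia 0 at normal CO2, titled day 0 (4 arrays). The labels give total RNA and name no organ, no age at harvest and no separate plantings. Spread between arrays may therefore be technical, and CO2 level cannot be told apart from days of growth. The labels name no cell type, so more cells of a type and more RNA per cell cannot be told apart for any probe below.

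At normal CO2 the enzyme Rubisco binds oxygen as well as CO2, and the product of the oxygen reaction is recycled by photorespiration, a pathway that crosses the chloroplast, peroxisome and mitochondrion. High CO2 suppresses the oxygen reaction, so that carbon gain and leaf sugars usually rise while flow through photorespiration falls. Chloroplasts handle the fixed carbon and the excess of reducing power through enzymes and envelope transporters that are mostly encoded in the nucleus and are in part controlled through their transcripts.

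A gene table for these probes listed at least 1 gene for 1562 of the 3439 probes, exactly 1 gene for 692 and several for 870. Of the 692 single genes, 690 were matched to a RefSeq gene. Among the 123 raised probes, 26 had 1 listed gene, 28 had several and 69 had none listed here. Only the 26 are called by a gene name below, with the locus number standing for genes without a symbol, and the others are called by probe number. The table comes from a platform annotation that can be old. A probe with several listed genes may read any of them, and related genes may also share the signal of a single-gene probe.

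The raised probes reached widely different levels. Mean intensity at high CO2 ran from 0.953 to 70.5 with a median of 2.62, and mean intensity at normal CO2 from 0.149 to 26.2 with a median of 0.75. At high CO2, 13 of the 123 had a mean above 10 and 47 a mean under 2. At normal CO2, 52 had a mean under 0.68, so they met the level limit only through their high-CO2 values. Of these 52, 6 lay under the median of all probes at normal CO2. The ratio of the means had a median of 2.94 and an interquartile range of 2.41 to 4.48, against a median of 0.952 over all abundant probes and 0.933 over all probes. It lay between 2 and 3 for 64 probes, between 3 and 4 for 21, between 4 and 8 for 32, and above 8 for 6.

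**Figure D1:**
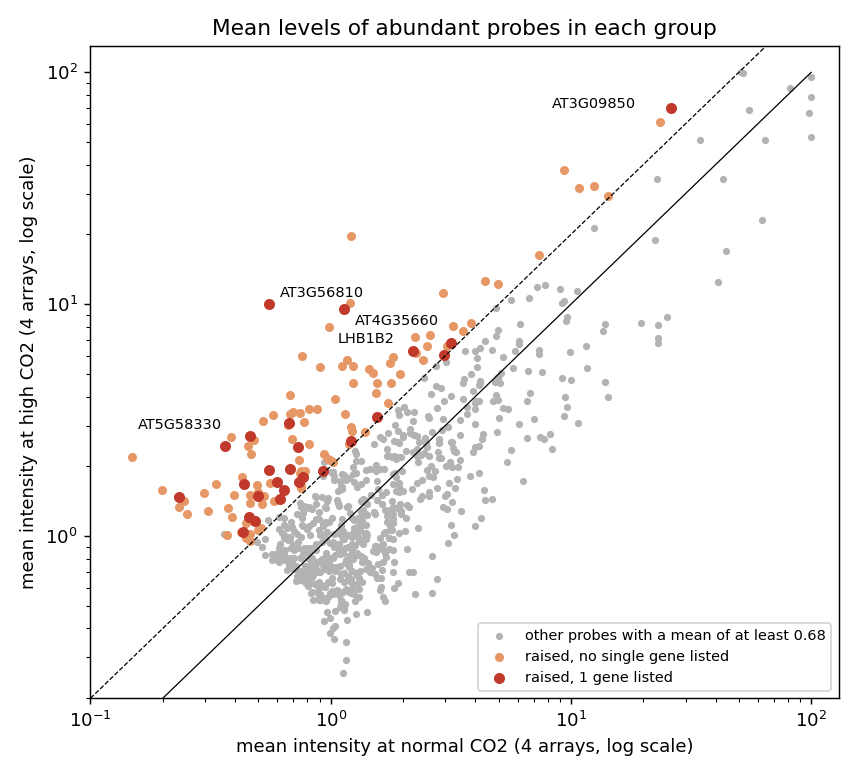
Mean intensity at high CO2 (vertical, log scale) against mean intensity at normal CO2 (horizontal, log scale), each over 4 arrays, for the 788 abundant probes. The solid line marks equal means and the dashed line a ratio of 2; the 123 raised probes, 26 of them with 1 listed gene, lie above the dashed line, with AT3G56810 farthest from it.

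Together these probes held a much larger part of the signal on the high-CO2 arrays, which the rule favours by asking for a 2-fold rise. Their summed intensity was 21.8%, 21.4%, 19.3% and 19.3% of the array total on high-CO2 arrays 1 to 4, against 7.31%, 7.41%, 6.33% and 6.35% on normal-CO2 arrays 1 to 4. The means were 20.4% ± 1.31 at high CO2 and 6.85% ± 0.589 at normal CO2 (SD, n = 4 each). In both groups arrays 1 and 2 gave a higher share than arrays 3 and 4. Without the 2 brightest members, the share was 16.6% ± 0.489 at high CO2 and 5.35% ± 0.459 at normal CO2 (SD, n = 4 each). The 98 probes lowered by the mirrored rule moved the other way, with 5.95% ± 0.0652 of the total at high CO2 and 16.8% ± 0.373 at normal CO2 (SD, n = 4 each). Signal within the raised set was uneven, since its 10 brightest members carried 46.4% of its summed mean at high CO2.

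**Figure D2:**
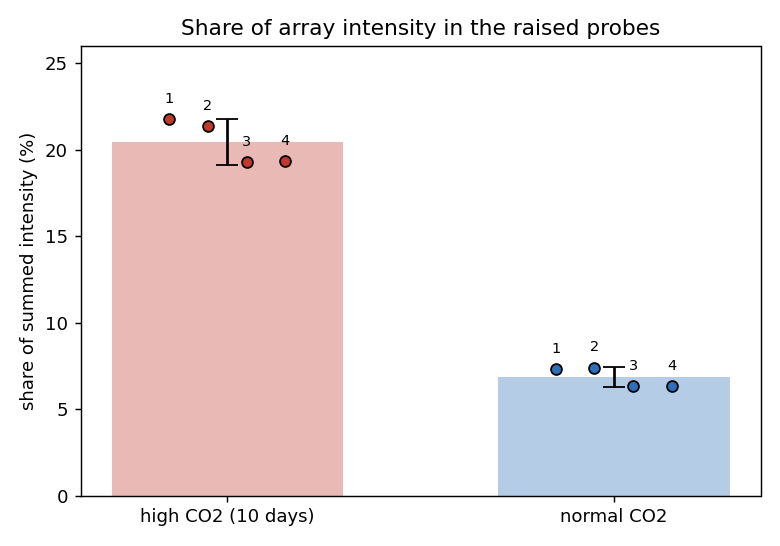
Share of the summed intensity of each array (percent, from 0) that lay in the 123 raised probes. Bars are group means with the SD over 4 arrays, and points are single arrays numbered by replicate; the high-CO2 arrays lie between 19.3% and 21.8% and the normal-CO2 arrays between 6.33% and 7.41%.

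Raised probes also took more of the top places in the intensity ranking at high CO2, which the rule favours as well. Among the 100 brightest probes of each group, 37 were raised probes at high CO2 and 9 at normal CO2. Among the 20 brightest they were 6 at high CO2 and 2 at normal CO2. Ranked from the brightest probe downwards, the median rank of the raised probes was 200 at high CO2 and 706 at normal CO2. No raised probe stood at 0 or at the ceiling of the table, 100, on any array, so none of their ratios is a lower bound for that reason.

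The brightest raised probe is assigned to AT3G09850. Its intensity was 94.8, 89.0, 48.3 and 49.8 on the high-CO2 arrays, against 31.1, 29.8, 21.3 and 22.5 on the normal-CO2 arrays. The groups did not overlap, but high-CO2 arrays 1 and 2 stood far above arrays 3 and 4, and the ratio of the means was 2.69. Probe 910, the second brightest and without a listed gene, was far steadier: it had 59.4, 64.9, 59.6 and 59.8 at high CO2, against 22.6, 23.7, 23.5 and 24.6 at normal CO2, a ratio of 2.58.

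The next 3 in level had no listed gene either. Probe 2398 averaged 37.7 ± 4.00 at high CO2 and 9.37 ± 1.85 at normal CO2 (SD, n = 4 each), a ratio of 4.03. Probe 3100 averaged 32.5 ± 4.68 at high CO2 and 12.4 ± 0.637 at normal CO2 (SD, n = 4 each). Probe 514 differed most between arrays: it had 42.2, 40.0, 24.5 and 19.6 at high CO2, against 16.5, 18.8, 3.50 and 4.34 at normal CO2. Here the lowest high-CO2 value was 1.04 times the highest normal-CO2 value, the narrowest separation of all 123. High-CO2 arrays 1 and 2 exceeded normal-CO2 arrays 1 and 2 by more, as did arrays 3 and 4, but the labels name no such pairs.

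The other 5 of the 10 highest means were those of probes 4125, 2769, 2283, 2881 and 2956, at 29.2, 19.7, 16.4, 12.6 and 12.2 at high CO2, against 14.2, 1.21, 7.36, 4.38 and 4.96 at normal CO2.

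The 6 probes with ratios above 8 had means at normal CO2 from 0.149 to 1.21, under the median of 1.27 over all abundant probes. Among all probes at normal CO2 these means lay between percentiles 30.8 and 87.6. AT3G56810 had the largest ratio of all, 18.1, with 9.55, 10.3, 10.2 and 10.1 at high CO2, against 0.709, 0.741, 0.391 and 0.379 at normal CO2. Its high-CO2 arrays were close to one another, while its rank by mean intensity was 38 at high CO2 and 956 at normal CO2. Probe 2769 followed with a ratio of 16.2, with means of 19.7 ± 1.56 at high CO2 and 1.21 ± 0.247 at normal CO2 (SD, n = 4 each). Probe 1336, the dimmest of the 123 at normal CO2, averaged 2.20 ± 0.0950 at high CO2 and 0.149 ± 0.0401 at normal CO2 (SD, n = 4 each), a ratio of 14.8.

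AT4G35660 was the other named gene with a ratio above 8. It had 12.4, 10.8, 7.42 and 7.71 at high CO2, against 1.42, 1.38, 0.782 and 0.942 at normal CO2, and its ratio was 8.46. Probes 175 and 2818, with ratios of 8.36 and 8.11, completed the 6 above 8. Next came probes 1323, 2188 and 153, with ratios of 7.98, 7.86 and 6.92. In all 6, even the lowest high-CO2 array lay several times above the highest normal-CO2 array.

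Named genes are described next by role, beginning with those whose products act in chloroplasts. LHB1B2 (LHCB1.5), a chlorophyll a/b-binding protein of the main light-harvesting antenna of photosystem II, had 7.43, 6.42, 5.80 and 5.61 at high CO2, against 2.04, 1.97, 2.50 and 2.34 at normal CO2. Its groups were well apart, with a ratio of 2.86. The antenna genes are a family of close relatives, so this probe may read several of them.

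AT5G58330 encodes the NADP-dependent malate dehydrogenase of the chloroplast, which passes excess reducing power out of the organelle as malate. Its probe had 2.74, 2.38, 2.81 and 2.90 at high CO2, against 0.345, 0.425, 0.452 and 0.624 at normal CO2. The ratio was 5.86, and the probe stood at rank 190 by mean intensity at high CO2 and at rank 1148 at normal CO2. AT5G17630, a plastid envelope transporter that exchanges xylulose 5-phosphate for phosphate, averaged 1.71 ± 0.304 at high CO2 and 0.74 ± 0.0999 at normal CO2 (SD, n = 4 each), a ratio of 2.31.

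AT3G47650 encodes a chaperone related to BSD2, which assists the assembly of Rubisco. It had 2.77, 2.72, 3.81 and 3.71 at high CO2, against 1.55, 1.76, 1.66 and 1.26 at normal CO2, and its ratio of 2.09 was close to the limit of the rule. FZL, a dynamin-like protein that shapes the thylakoid membranes, averaged 2.58 ± 0.366 at high CO2 and 1.21 ± 0.262 at normal CO2 (SD, n = 4 each), a ratio of 2.13. Both ratios were smaller than that of AT5G58330, a difference that was not tested.

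AT5G63290 is a relative of coproporphyrinogen oxidases, and no pathway or place in the cell is given for it here. It had 1.36, 1.32, 2.06 and 1.96 at high CO2, against 0.498, 0.591, 0.338 and 0.320 at normal CO2. The ratio of its means was 3.84, and on arrays 3 and 4 the groups stood farther apart than on arrays 1 and 2. AT1G24040, an acetyltransferase of the GNAT family, averaged 1.17 ± 0.105 at high CO2 and 0.482 ± 0.0967 at normal CO2 (SD, n = 4 each), a ratio of 2.42.

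A gene of defence signalling was also among the 26. AT5G52810, known as SARD4, takes part in the synthesis of pipecolic acid, a signal of systemic acquired resistance. It averaged 2.42 ± 0.394 at high CO2 and 0.73 ± 0.2 at normal CO2 (SD, n = 4 each). No array of one group reached the other, and the ratio was 3.31.

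Other named genes are described here only by a predicted activity or a family. AT4G19900, a predicted glycosyltransferase, averaged 6.82 ± 0.671 at high CO2 and 3.16 ± 0.786 at normal CO2 (SD, n = 4 each). AT1G35510, of the O-fucosyltransferase family, averaged 1.20 ± 0.272 at high CO2 and 0.457 ± 0.237 at normal CO2 (SD, n = 4 each), with the normal-CO2 arrays running from 0.167 to 0.716. For AT4G39760, of the kelch-repeat family, the means were 6.04 ± 1.55 at high CO2 and 2.97 ± 0.27 at normal CO2 (SD, n = 4 each). Its ratio of 2.03 was the smallest of all 123.

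Genes for proteins with a RING finger, a domain found in many enzymes that attach ubiquitin, were 2 of the 26. AT1G49850 averaged 1.71 ± 0.194 at high CO2 and 0.6 ± 0.0669 at normal CO2 (SD, n = 4 each). AT2G39100 had 0.906, 0.849, 1.28 and 1.12 at high CO2, against 0.534, 0.742, 0.220 and 0.225 at normal CO2. In the first gene the arrays of each group were close together, and in the second the normal-CO2 arrays 1 and 2 came near the high-CO2 arrays.

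For the remaining named genes no role is given here. AT5G46560 and AT2G30100 had the larger ratios among them, at 6.74 and 6.29. AT3G52070 had 3.14, 3.07, 3.15 and 2.99 at high CO2, against 0.759, 0.683, 0.650 and 0.586 at normal CO2, a ratio of 4.61 with little spread in either group. Ratios between 2 and 4 were found for AT4G09620, AT1G51080, AT3G57120, AT1G01730, AT3G06870, AT5G33390 and AT5G42680, with mean intensities under 3 at high CO2. Over all 26 named genes the median ratio was 2.77, and over the other 97 raised probes it was 3.03.

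**Figure D3:**
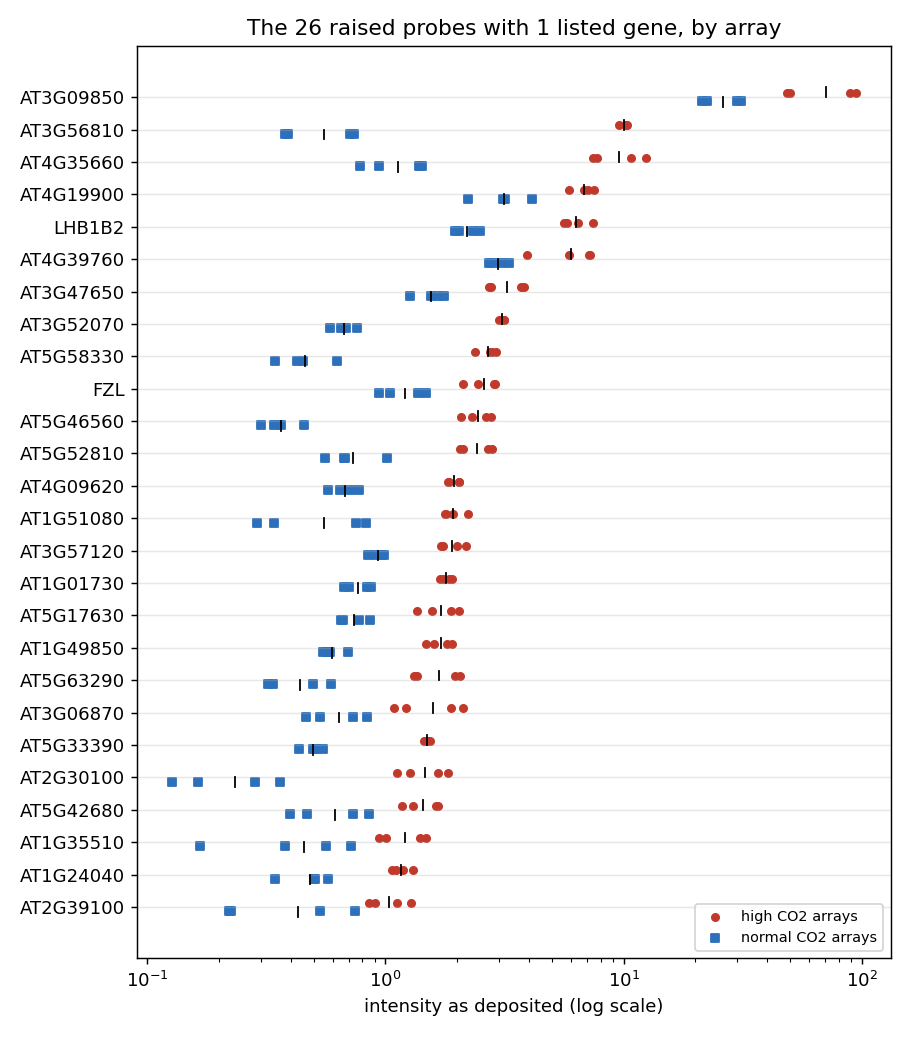
Intensity as deposited (log scale) on every array for the 26 raised probes with 1 listed gene, ordered by mean at high CO2. Circles are the 4 high-CO2 arrays, squares the 4 normal-CO2 arrays, and black ticks the group means; within each gene the circles and squares do not overlap, and in several genes, such as AT3G09850 and AT2G39100, the arrays of a group form 2 clumps.

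Photosystem and light-harvesting genes found by name on the array gave 4 single-gene probes, all abundant, and LHB1B2 was the only one in the raised set. PSBW, a small subunit of photosystem II, had 32.5, 36.5, 36.7 and 33.6 at high CO2, against 19.2, 34.1, 19.8 and 18.6 at normal CO2 (limma, adjusted p = 0.26, log2 change 0.35). Only normal-CO2 array 2 reached the high-CO2 values, and without that array the log2 change was 0.69 (limma, adjusted p = 0.00091). In the other 7 settings that left out 1 array it was 0.25 to 0.38 (limma, adjusted p from 0.27 to 0.47).

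PSAN, a subunit of photosystem I, averaged 4.86 ± 0.653 at high CO2 and 4.99 ± 0.342 at normal CO2 (SD, n = 4 each; limma, adjusted p = 0.18). PSBY, another small protein of photosystem II, averaged 1.75 ± 0.303 at high CO2 and 1.40 ± 0.0758 at normal CO2 (SD, n = 4 each; limma, adjusted p = 0.33). Neither passed the adjusted p threshold of 0.05. In the same test across all probes, 19.4% of 3157 probes passed as higher and 23.7% as lower.

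Of 2 Calvin cycle genes found by name, 1 passed as lower and none was a raised probe. SBPASE, which dephosphorylates sedoheptulose bisphosphate, fell to 0.401, 0.542, 0.635 and 0.718 at high CO2, against 0.896, 0.918, 0.705 and 0.830 at normal CO2 (limma, adjusted p = 0.016, log2 change -0.56). Its groups overlapped on a single pair of arrays. PRK, which makes the CO2 acceptor of the cycle, averaged 2.15 ± 0.209 at high CO2 and 1.88 ± 0.26 at normal CO2 (SD, n = 4 each; limma, adjusted p = 0.88).

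Pigment synthesis was represented by 2 dim probes outside the raised set. Z-ISO, a carotenoid isomerase, averaged 0.0881 ± 0.0369 at high CO2 and 0.195 ± 0.0232 at normal CO2 (SD, n = 4 each; limma, adjusted p = 0.03, log2 change -1.25), but 5 of 8 settings that left out 1 array gave an adjusted p above 0.05, up to 0.083. CHLM, a methyltransferase of chlorophyll synthesis, averaged 0.245 ± 0.0766 at high CO2 and 0.407 ± 0.0571 at normal CO2 (SD, n = 4 each; limma, adjusted p = 0.061). It passed without high-CO2 array 1 (limma, adjusted p = 0.036) or high-CO2 array 2 (limma, adjusted p = 0.022). The other 6 settings gave an adjusted p of 0.074 to 0.14 (limma). CCS, the copper chaperone of superoxide dismutase, averaged 0.293 ± 0.0581 at high CO2 and 0.188 ± 0.022 at normal CO2 (SD, n = 4 each; limma, adjusted p = 0.077). It passed without high-CO2 array 3 (limma, adjusted p = 0.014), and the other 7 settings gave an adjusted p of 0.086 to 0.18 (limma). The lists were matched by words in gene names, which misses genes listed by locus number alone, such as AT5G52810. For photorespiration, starch and sucrose, ribosomal proteins, and senescence and defence no single-gene probe matched by word, which does not show that such genes were not measured.

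Other probes that listed the same gene as a raised probe gave a measure that had not entered the choice. Among the 54 raised probes with a listed gene, 15 shared one with another probe, and there were 18 such other probes, none of them in the raised set and 15 of them not abundant. Of the 18, 8 had a higher and 10 a lower mean at high CO2. Of the 17 that could be tested, 2 passed as higher and 3 as lower (limma, adjusted p threshold 0.05), against 19.4% and 23.7% of all tested probes.

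AT1G35510 is one of 3 genes listed for a second, abundant probe, which averaged 1.94 at high CO2 and 2.51 at normal CO2 (limma, adjusted p = 0.0022). AT5G42680 is also listed for another probe, which was not abundant. That probe averaged 0.354 at high CO2 and 0.527 at normal CO2 (limma, adjusted p = 0.052). A raised probe with 2 listed genes, probe 1575, had a ratio of 2.39, and the other 2 probes with exactly the same pair of genes had ratios of 1.29 (limma, adjusted p = 0.12) and 0.637 (limma, adjusted p = 0.013). The 2 that passed as higher were dim probes, 2428 and 2492, with ratios of 2.06 and 2.48 (limma, adjusted p = 0.023 and 0.0014). Whether the probes of a shared gene read the same transcript was not tested.

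In most raised probes, arrays 1 and 2 of a group lay on one side of arrays 3 and 4. At high CO2, arrays 1 and 2 both lay above arrays 3 and 4 in 32 of the 123 and both below in 57, and among the other 665 abundant probes these counts were 123 and 299. At normal CO2, arrays 1 and 2 both lay above in 60 of the 123 and both below in 24, against 214 and 212 of the other abundant probes. The labels name no such pairs, and the part of this split in the results was not tested.

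The size of the rise depended on the array pair. The median log2 ratio of the 123 was 1.46 on arrays 1 and 2 and 1.82 on arrays 3 and 4. It was larger on arrays 3 and 4 in 85 of the 123, or 69.1%, and likewise in 63.5% of the other abundant probes. In 25 of the 123 the log2 ratios from the 2 pairs differed by more than 1, every time with the larger on arrays 3 and 4. That was 20.3%, and the log2 ratios differed by more than 1 in 35 of the other 665 abundant probes, or 5.26%. The direction in those 35 was not counted, and the difference between the shares was not tested. AT2G39100 was among the 25 raised probes, at 0.46 on arrays 1 and 2 and 2.43 on arrays 3 and 4. At least a 2-fold ratio was reached on both pairs by 91 of the 123.

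**Figure D4:**
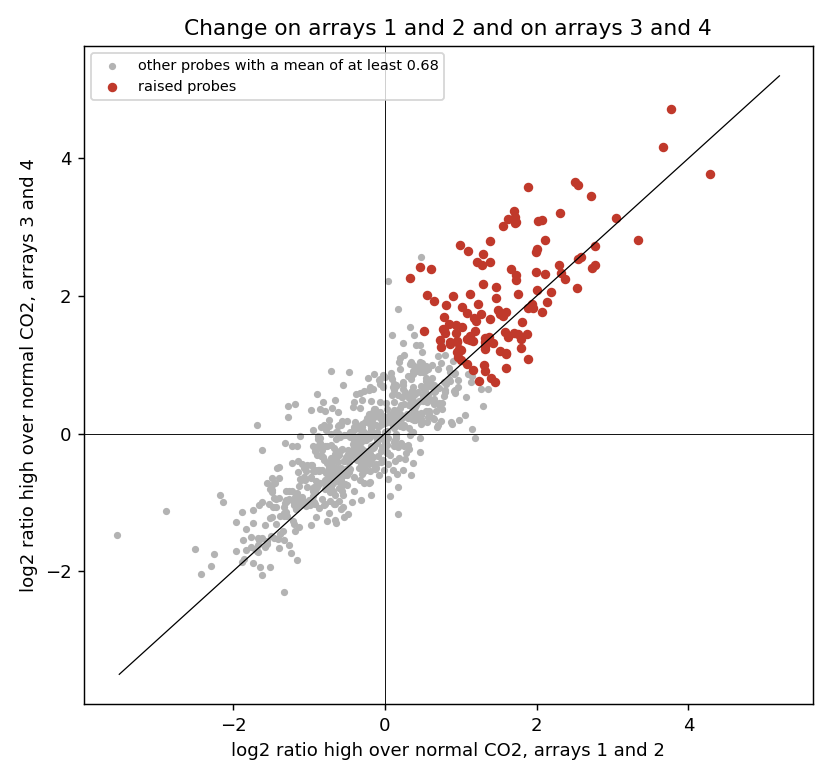
Log2 ratio of mean intensity at high over normal CO2 on arrays 3 and 4 (vertical) against that on arrays 1 and 2 (horizontal) for the 123 raised probes (red) and the other abundant probes (grey). The solid line marks equal ratios; 85 of the 123 raised probes lie above it.

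Because the pairs share no array, a choice made on one pair could be tested on the other. The pairs were set with earlier results of these data known, in which the arrays of a pair lay closest to each other. Spread within a pair may therefore be smaller than over all arrays of a group, which can make passing and no overlap easier. The labels name no separate plantings. The tests therefore show only how far the arrays of the same 2 groups repeat each other. Applied to arrays 1 and 2 of each group alone, the rule chose 107 probes, 96 of them among the 123. On arrays 3 and 4, which had no part in that choice, 103 of the 107 were higher at high CO2 past an adjusted p of 0.05 (limma, n = 2 arrays per group) and 0 were lower. That was 96.3%, against 18.7% of all tested probes and 30.1% of those abundant on arrays 1 and 2. Their median log2 change on arrays 3 and 4 was 1.62, against -0.15 over all tested probes, and 105 of the 107 had no overlap there, against 46.1% of the abundant probes.

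In the reverse direction fewer carried over. Chosen on arrays 3 and 4 were 143 probes, 115 of them among the 123, and on arrays 1 and 2 a total of 124 passed as higher (limma, adjusted p threshold 0.05, n = 2 arrays per group) and 0 as lower. This was 86.7%, against 15.6% of all tested probes and 27% of those abundant on arrays 3 and 4. The median log2 change on arrays 1 and 2 was 1.34, against -0.09 over all tested probes. No overlap was seen there in 137 of the 143, against 37.3% of the abundant probes. Both pairs chose 88 probes, and all 88 are among the 123. The rule nearly fixes this, since a probe that meets the level and ratio limits on both pairs also meets them over all arrays.

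A gene that differed between the pairs was NdhS, a subunit of the chloroplast NADH dehydrogenase-like complex, which is not among the 123. It had 5.07, 9.71, 14.9 and 17.9 at high CO2, against 6.33, 6.61, 7.03 and 8.99 at normal CO2. Chosen on arrays 3 and 4, it had a log2 change of 0.02 on arrays 1 and 2 (limma, adjusted p = 0.95). Of the 4 probes chosen on arrays 1 and 2 that did not pass on arrays 3 and 4, probes 884 and 2974 had log2 changes below 0 there, at -0.32 and -0.12. Both pairs set the same 2 groups against each other, so CO2 level and days of growth cannot be told apart in these tests either.

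The fit over all 8 arrays used the contrast that chose the probes and serves here to give errors. All 123 passed it as higher (limma, adjusted p threshold 0.05), against 19.4% of all tested probes and 27.8% of the abundant ones, from which nothing is read. The log2 changes of the 123 after quantile normalization ran from 0.85 to 4.25, and their standard errors from 0.087 to 0.45 with a median of 0.17. AT3G56810 had 4.25 ± 0.20, LHB1B2 1.34 ± 0.14, AT5G58330 2.51 ± 0.18 and AT3G09850 1.25 ± 0.24 (log2 change ± SE).

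The coefficient of variation between arrays, the SD as a percentage of the mean, had a median of 11.8% at high CO2 and 19.3% at normal CO2, against 15.3% and 11.0% in the other abundant probes. Over all probes the median was 29.1% at high CO2 and 19.2% at normal CO2. It exceeded 30% in 6 of the 123 at high CO2 and in 31 at normal CO2. The raised probes had a median intensity of 2.62 at high CO2 and 0.75 at normal CO2. In the other abundant probes it was 1.15 and 1.35. The no-overlap condition also limits the spread of the raised probes, and the part of level and rule in these differences was not tested.

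The limits of the rule cut through continuous ranges. The means over all arrays of the 3 members nearest the level limit were 0.693, 0.708 and 0.714, and the 3 nearest probes outside had 0.668, 0.666 and 0.660. At the ratio limit the 3 nearest inside had 2.03, 2.03 and 2.05, and the 3 nearest outside 1.98, 1.98 and 1.97. At the limit of no overlap, the lowest high-CO2 value was 1.04, 1.09 and 1.10 times the highest normal-CO2 value in the 3 nearest members and 0.904, 0.789 and 0.753 times in the only 3 abundant probes kept out by overlap alone. A further 64 abundant probes without overlap had ratios from 1.5 to 2, and 244 probes met the other conditions at a mean under 0.68. AT1G31790, at a mean of 0.666 and a ratio of 2.75, was a named gene among those 244.

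Raised probes occurred along the whole range of probe numbers, though not evenly. In blocks of 300 consecutive numbers, with 14 to 67 abundant probes each, they made up from 5.97% to 25% of the abundant probes. Abundant neighbours of raised probes were counted at 7 distances in probe number, chosen with earlier results known, each pair of raised probes being counted from both sides. Raised were 6 of 41 at a distance of 1 (14.6%), 4 of 23 at 2 (17.4%), 6 of 40 at 3 (15%), 2 of 34 at 6 (5.88%) and 18 of 62 at 12 (29.0%), beside 15.6% of all abundant probes. At the other 2 distances, both much longer than 12, raised were 8 of 31 at the shorter (25.8%) and 2 of 32 at the longer (6.25%). The differences between these shares were not tested. LHB1B2, probe 2677 and probe 2689 followed each other at a spacing of 12, with ratios of 2.86, 2.84 and 3.79. No source used here gives the array's layout, and the part of position in these values was not tested.

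Outside the raised set, 3 abundant probes had the pattern most like the mean log2 profile of the 123 over the 8 arrays. These were probes 4601, 4171 and 2255, with Pearson's r of 0.979, 0.979 and 0.977 among 665 candidates, a description over 8 arrays that fall into 2 groups. Their ratios were 1.76, 1.52 and 1.37, below the limit of the rule. Probe 4601, the closest, had 1.10, 1.10, 1.13 and 0.971 at high CO2, against 0.609, 0.619, 0.617 and 0.601 at normal CO2.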

How the data were processed

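Expression arrays of 8 samples were grouped, and their replicates numbered, by the sample titles (4 high CO2, 4 normal CO2). The values are linear intensities as the authors deposited them, 1 per probe and array; no source used here states how they were scaled or background-corrected. The values show none below 0 and a ceiling of 100. The members, gene lists and tests were chosen with earlier results of these data known.

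The rule and all ratios used the deposited intensities with 0 kept. Tests used limma 3.58.1 in R 4.3.3 (lmFit, eBayes with an intensity trend, two-sided) on log2 quantile-normalized intensities with 0 as missing, over the 3157 probes with at least 3 nonzero values per group, or on all 4 arrays for the tests on 1 pair of arrays per group (3030 and 3069), with Benjamini-Hochberg adjustment over all tested probes and a threshold of 0.05. The genes named were set by a rule: members in the gene lists, the 10 highest means at high CO2 and the 10 largest ratios; the other single-gene members, further probes given by number, and NdhS and AT1G31790, were added after their values were seen. Gene lists were matched by words in RefSeq (TAIR10.1) symbols and synonyms. Arrays give no counts, and the number of arrays limits the precision. Alternatives were other scalings, limits, a pseudocount of 0.0363 (the 5th percentile of values above 0), variance models, the replicate number as a block and leaving out each array. Sequences are not shown.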

Additional observations from a re-analysis of the deposited data

Results flagged for a closer look

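Dixon's criterion was applied to 110 groups of 4 arrays, for the named probes and for sums, shares and medians of the raised set, and chance alone marks about 1 in 20. It marked 3. Probe 910, the second brightest raised probe, stood at 64.9 on high-CO2 array 2, against 59.4 to 59.8 on the other 3 high-CO2 arrays. PSBW stood at 34.1 on normal-CO2 array 2, against 18.6 to 19.8 on the other 3. CCS stood at 0.221 on the same array, against 0.173 to 0.179 on the others. PSBW and CCS are not in the raised set.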

How the results depend on the processing

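The 123 members became 118 with equal sums per array and 111 with quantile-normalized intensities, all of them among the 123, and 126 without the no-overlap condition. Halving the level limit to 0.34 gave 191, doubling it to 1.36 gave 76, and fold limits of 1.5 and 3 gave 187 and 59. Leaving out 1 array gave 114 to 132. The median log2 ratio of the members was 1.56, against 1.52 with equal sums, 1.5 after quantile normalization, 1.52 with the pseudocount, and 1.54 to 1.64 without 1 array. Their share at high CO2 stayed between 19.99% and 20.8% without 1 array. All 123 passed in every setting of the fit over 8 arrays except a threshold of 0.01, where 122 did. Of all tested probes, 12.8% to 19.9% passed as higher in these settings, and nothing is read from the count of members. On arrays 3 and 4, 94 to 104 of the 107 passed with all 4 arrays kept, beside 15.6% to 24.4% of all tested probes. The median log2 change of 1.62 was 1.79 without normalization, 1.73 with equal sums and 1.57 to 1.67 without 1 array. On arrays 1 and 2, 94 to 130 of the 143 passed (99 to 123 without 1 array), with a median log2 change of 1.34, or 1.29 to 1.36 without 1 array. Where 1 array was left in a group, only the median log2 change is given. Arrays with the same replicate number did not deviate together (correlations from -0.026 to 0.10); with the replicate block 123, 104 and 127 passed in these fits, and no median moved. PRK ranged from -0.071 to 0.11 without 1 array and changed sign, at -0.0046, -0.039 and -0.071, without high-CO2 array 1, high-CO2 array 2 or normal-CO2 array 1, and was never called. The causes of these shifts were not tested.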
